A study of Mus musculus with 6 samples.

Results

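The RNA-seq table was read for 9 genes of the TIFAB, TIFA and TRAF6 signalling pathway: *Tifab*, *Tifa*, *Alpk1*, *Myd88*, *Irak4*, *Irak1*, *Traf6*, *Traf2* and *Usp15*. They were taken by gene symbol from the 54532 genes of the table, and all 9 were found. The libraries came from LSK cells of C57BL/6 mice, a bone marrow fraction free of lineage markers, positive for Sca1 and c-Kit and rich in hematopoietic stem and progenitor cells. *Myh9*-deficient LSKs were from Myh9 fl/fl;Mx1-cre mice and control LSKs from littermates with the floxed *Myh9* alleles and no cre, with 3 libraries in each group. Mice of both groups received poly I:C at 5 mg/kg, a double-stranded RNA that induces interferon and through it the Mx1-Cre transgene, in 2 doses by the sample descriptions and 3 by the methods. Genotyping took place between 4 and 5 weeks of age, and 100000 LSK cells were sorted 4 days after the first dose. Because Mx1-Cre acts in every cell that responds to interferon, *Myh9* could be lost outside the hematopoietic cells too. How many mice stood behind each library is not stated in the sources used here, so the p-values measure only the spread between these libraries.

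The libraries held 17571544 to 19894562 reads on genes, recovered from the deposited FPKM (fragments scaled by gene length and by library size). *Myh9*, the targeted gene, which encodes the heavy chain of non-muscle myosin IIA, fell from 22.5 ± 0.495 FPKM over control libraries to 18.7 ± 1.18 FPKM over *Myh9*-deficient libraries (SD, n = 3). This was a log2 fold change of -0.26 (limma, adjusted p = 0.00642), with no overlap between the groups. These values cover the whole gene and not the floxed exon alone.

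TIFA is a small adaptor with a forkhead-associated (FHA) domain. In its best known role it is phosphorylated by the kinase ALPK1 when bacterial heptose sugars enter the cytoplasm, assembles into larger complexes and recruits TRAF proteins. TRAF6, a ubiquitin ligase, also receives the signals of Toll-like and IL-1 family receptors through MYD88, IRAK4 and IRAK1, and passes them to the kinase TAK1 and to NF-kB. TIFAB is a relative of TIFA that restrains this signalling in hematopoietic cells. It has also been tied to the deubiquitinase USP15 and to p53, and the human gene lies in a region of chromosome arm 5q that is lost in some myelodysplastic syndromes.

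*Tifab* (ENSMUSG00000049625) lies on chromosome 13 from 56173704 to 56178885, minus strand, in GRCm38 (mm10). Its exons shared no base with exons of another gene of GENCODE M21. RefSeq places a long non-coding RNA gene, *Gm31657*, across the locus, and this gene was not analysed here. The following real-time PCR primers of the study are shown because they mark the stretch by which *Tifab* RNA can be measured separately from the sequencing. Both matched transcripts of *Tifab* and of no other gene, in the coding sequence of exon 3 of 3, with a product of 125 bases. The forward primer lies at chr13:56176498-56176517 and the reverse primer at chr13:56176393-56176411.

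Tifab forward primer: gttgggcgaggacagaacac

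Tifab reverse primer: gtcagcaccttgaggcaga

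*Alpk1* and *Tifa* are neighbours on chromosome 3, transcribed away from each other, with 9277 bases between their 5′ ends. *Alpk1* (ENSMUSG00000028028) runs from 127670310 to 127780527 on the minus strand and *Tifa* (ENSMUSG00000046688) from 127789805 to 127832164 on the plus strand. These genes and *Tifab* were all lower in *Myh9*-deficient LSKs, and their upstream sequence was read from RefSeq (GRCm38.p6). That of *Irak1*, which was also called lower, was not read. The stretches printed here end before the span of the gene itself in RefSeq and GENCODE M21, and exons of other genes were not checked there. The RefSeq span of each of these genes reaches to its printed stretch, so the rest of its window of 250 bases lies inside that span. The stretch upstream of *Tifab*, chr13:56179003-56179135 on the minus strand, has 133 bases with a GC content of 55.6%. It ends 118 bases before the start from which the window was taken (56178885). The capitals mark the 4 copies of a 10-letter repeat, the longest run of letters that occurs 4 times there, which was looked for after the sequence was seen. Read on each gene's own strand, at least 1 copy was found in 9 of 32851 RefSeq windows of 250 bases before a gene start (0.03%), and 4 copies in 1 window, that of *Tifab*. Other windows were not searched for repeats of their own, so these counts do not show whether such a repeat sets *Tifab* apart. The stretch upstream of *Alpk1*, chr3:127780548-127780777 on the minus strand, has 230 bases with a GC content of 36.5%, and its capitals mark an NF-kB consensus match that overlaps a CArG box, the element read by serum response factor.

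Tifab upstream: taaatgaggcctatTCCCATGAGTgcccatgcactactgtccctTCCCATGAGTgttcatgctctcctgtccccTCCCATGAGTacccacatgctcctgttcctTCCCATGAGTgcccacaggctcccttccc

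Alpk1 upstream: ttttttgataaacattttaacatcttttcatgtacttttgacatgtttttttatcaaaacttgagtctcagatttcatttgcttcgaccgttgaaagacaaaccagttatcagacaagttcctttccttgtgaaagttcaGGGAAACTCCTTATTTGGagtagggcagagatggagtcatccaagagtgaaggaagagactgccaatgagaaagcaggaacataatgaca

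The full windows of 250 bases were searched on both strands for AP-1 (TGANTCA, in 6.75% of all windows), PU.1 (GAGGAAGT, 2.44%), C/EBP (TTGCNNAA, 9.56%), RUNX (TGTGGT, 14.05%), EGR (GCGTGGGCG, 0.54%), the NF-kB consensus (3.9%) and the CArG box (1.47%). No match was found in the window of *Tifab* or in either window of *Tifa*. The window of *Alpk1* held only the NF-kB match, beginning at position -110 from the start, and the CArG box, beginning at -102. A match of letters describes the sequence and not a bound site.

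**Figure D1:**
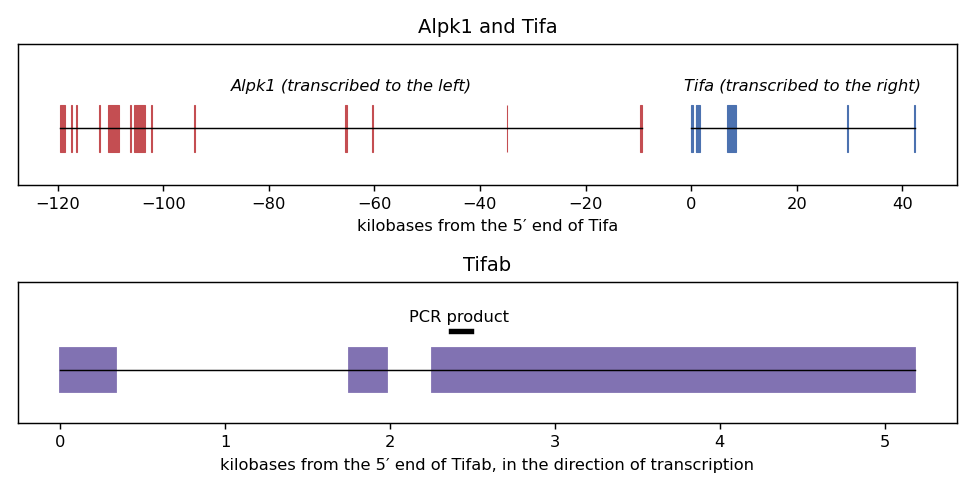
The maps show the exons (boxes) of *Alpk1* and *Tifa* (upper, kilobases from the 5′ end of *Tifa*) and of *Tifab* (lower, kilobases from its own 5′ end in the direction of transcription), to scale. *Alpk1* and *Tifa* point away from each other, and the PCR product of *Tifab* (black bar) lies within its last exon.

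*Tifab* changed most of the 9 genes, and *Tifa* came next. *Tifab* measured 87.1, 85.9 and 87.1 FPKM in the control libraries and 27.3, 28.3 and 30.2 FPKM in the *Myh9*-deficient libraries. Every *Myh9*-deficient library lay far below every control library, and the spread within each group was small (86.7 ± 0.7 against 28.6 ± 1.48 FPKM, SD, n = 3). The level of *Tifab* RNA dropped by 67.0%. Its log2 fold change was -1.57 with a 95% interval from -1.66 to -1.47 (adjusted p = 3.53e-06, limma). Each value rested on 1790 to 6060 reads. *Tifab* stood at place 19 in the order of falls among the 11552 genes tested, and its place in the order of mean levels moved from 717 over control libraries to 2178 over *Myh9*-deficient libraries.

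*Tifa*, the adaptor, measured 15.5, 18.3 and 17.7 FPKM in control against 10.5, 10.5 and 10.4 FPKM in *Myh9*-deficient libraries. The latter were below all control libraries and lay close together, whereas control library 1 was lower than the other 2 controls. The level of *Tifa* dropped by 39.0%, from 17.2 ± 1.44 to 10.5 ± 0.097 FPKM, and its log2 fold change was -0.66 with a standard error of 0.06 (adjusted p = 0.000342, limma). *Tifa* shares 105 exon bases (3.3%) with *Gm43654* on the other strand, and the library kit does not mark strand.

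*Alpk1*, the sugar-sensing kinase, was the lowest of the 9 genes, with 1.19, 1.29 and 1.4 FPKM in control against 0.832, 1.05 and 0.806 FPKM in *Myh9*-deficient libraries. The groups did not overlap, although *Myh9*-deficient library 2 came near the lowest control. *Alpk1* fell by 30.5% in mean FPKM (log2 fold change -0.27, with a limma adjusted p = 0.0462), on 103 to 184 reads for each value. The 1 FPKM added before taking logs shrinks the fold change of so low a gene, which was -0.49 with 0.1 added instead. The call was lost when control library 1, 2 or 3 or *Myh9*-deficient library 1 or 3 was left out (adjusted p = 0.0724, 0.107, 0.127, 0.115 and 0.117), while the gene stayed lower in each case.

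Of the receptor-proximal genes, *Myd88* was higher in *Myh9*-deficient LSKs. *Myd88* (ENSMUSG00000032508, chromosome 9 from 119335934 to 119341411, minus strand), the adaptor below most Toll-like and IL-1 family receptors, measured 20.2, 20.8 and 20.04 FPKM in control against 22.8, 21.97 and 23.0 FPKM in *Myh9*-deficient libraries. No control library reached the lowest of these. The rise was 11.1%, or 0.15 on the log2 scale (limma, adjusted p = 0.0133). *Myd88* shares 290 exon bases (11.3%) with *Acaa1a* on the other strand, which fell from 18.1 ± 0.771 to 14.9 ± 0.98 FPKM, and how reads in shared bases were counted is not given in the sources used here.

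*Irak4* (ENSMUSG00000059883, chromosome 15 from 94543643 to 94581815, plus strand) encodes the kinase that binds MYD88 first. It measured 5.04, 5.59 and 5.54 FPKM in control against 4.97, 4.4 and 4.63 FPKM in *Myh9*-deficient libraries. The groups were adjacent without overlap, and the log2 fold change of -0.17 (95% interval from -0.32 to -0.03) did not pass (adjusted p = 0.0578, limma). It shares 395 exon bases (7.9%) with *Twf1* on the other strand, which measured 10.3 ± 0.379 FPKM in control against 12.3 ± 0.199 FPKM in *Myh9*-deficient LSKs.

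*Irak1* (ENSMUSG00000031392, chromosome X from 74013914 to 74023918, minus strand) encodes the kinase that IRAK4 activates and that engages TRAF6. It measured 31.0, 31.8 and 29.9 FPKM in control against 28.4, 26.2 and 28.9 FPKM in *Myh9*-deficient libraries, so that the highest *Myh9*-deficient library lay just under the lowest control. *Irak1* fell by 10.1% (log2 fold change -0.15, with a limma adjusted p = 0.0393). Leaving out control library 1, 2 or 3 or *Myh9*-deficient library 1 or 2 ended the call (adjusted p = 0.0995, 0.117, 0.0504, 0.0651 and 0.0769), again with the gene lower each time.

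*Traf6* (ENSMUSG00000027164, chromosome 2 from 101678429 to 101701669, plus strand), the ubiquitin ligase on which these routes meet, did not pass the test. It measured 4.58, 3.92 and 4.17 FPKM in control against 3.92, 3.61 and 3.8 FPKM in *Myh9*-deficient libraries. The groups touched without overlapping. The log2 fold change was -0.13 with a 95% interval from -0.28 to 0.02 (adjusted p = 0.153, limma), which leaves room for a fall of that size or for none.

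*Traf2* (ENSMUSG00000026942, chromosome 2 from 25517982 to 25546940, minus strand), a TRAF adaptor best known from TNF receptor signalling and also recruited by TIFA, was the single member whose groups overlapped. It measured 11.2, 8.91 and 9.65 FPKM in control against 9.61, 10.3 and 9.58 FPKM in *Myh9*-deficient libraries. Its log2 fold change was -0.01, with a 95% interval from -0.2 to 0.18 (adjusted p = 0.938, limma), and its sign depended on the scaling.

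*Usp15* (ENSMUSG00000020124, chromosome 10 from 123105006 to 123196995, minus strand), the deubiquitinase tied to TIFAB, measured 4.3, 4.42 and 4.81 FPKM in control against 4.85, 4.84 and 4.89 FPKM in *Myh9*-deficient libraries. The *Myh9*-deficient libraries were tightly grouped just above the highest control. The log2 fold change of 0.09 (95% interval from -0.03 to 0.21) did not pass (adjusted p = 0.205, limma).

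**Figure D2:**
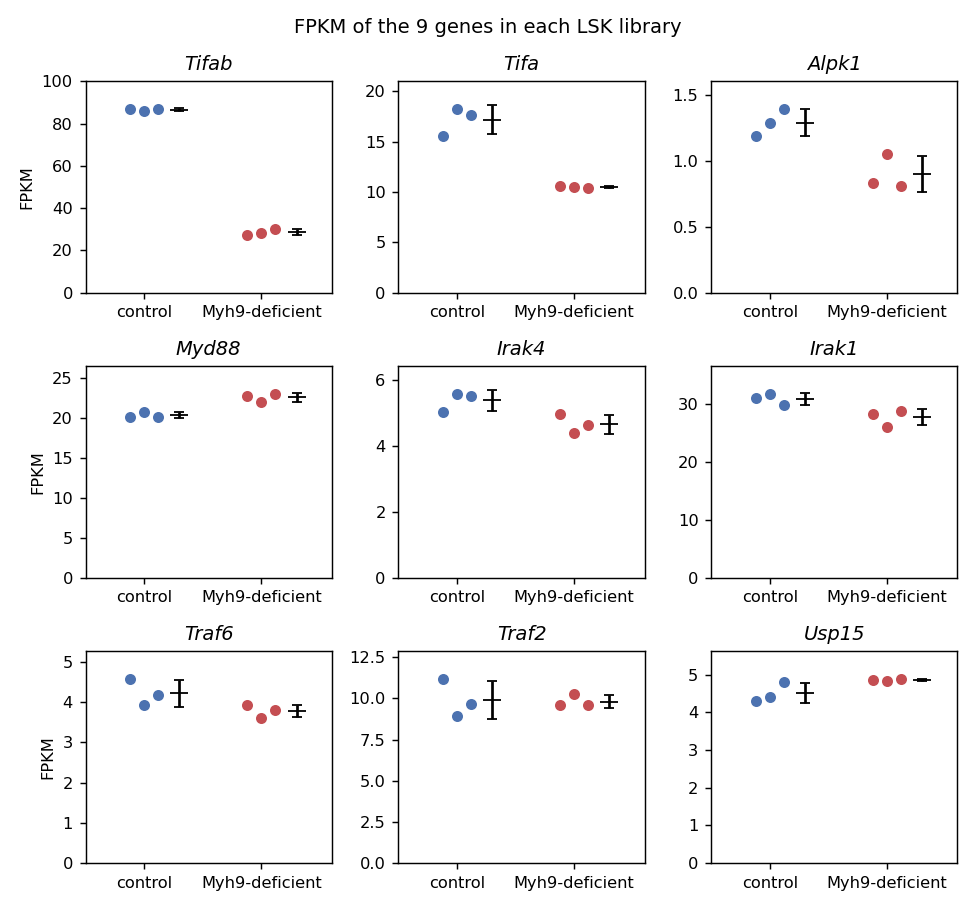
Each panel shows the FPKM of 1 gene in the 3 control (blue) and 3 *Myh9*-deficient (red) LSK libraries, with the mean and SD in black and an axis from 0 that differs between panels. *Tifab* falls from a mean of 86.7 to 28.6 FPKM and *Tifa* from 17.2 to 10.5 FPKM, and the points of *Traf2* overlap between the groups.

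Of the 9 genes, all of which had a mean of at least 1 FPKM, 5 had an adjusted p under 0.05, 4 of them lower (*Tifab*, *Tifa*, *Alpk1* and *Irak1*) and 1 higher (*Myd88*). Over all genes tested, 40.5% were called, 20.6% lower and 19.9% higher in *Myh9*-deficient LSKs. Groups without overlap were found for 8 of the 9 genes, against 54% of all genes tested. The log2 fold change was below 0 for 7 of the 9, with a median of -0.15, beside 51.74% and a median of -0.01 over all genes tested. Only *Tifab* changed more than 2-fold with an unadjusted p under 0.05, as did 2.13% of all genes tested. The middle 95% of all genes tested lay between -0.61 and 0.75, so that *Tifab* and *Tifa* fell below this range and the other 7 lay inside it.

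**Figure D3:**
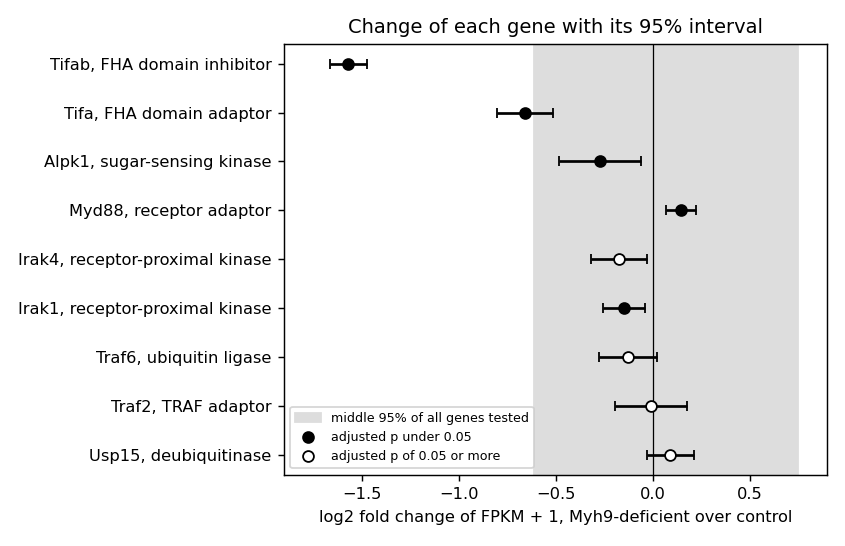
Points show the log2 fold change of FPKM + 1 (*Myh9*-deficient over control) of each gene and bars its 95% interval, filled where the adjusted p was under 0.05. *Tifab* (-1.57) and *Tifa* (-0.66) lie to the left of the grey band that holds the middle 95% of all genes tested, and the others lie inside it.

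Levels per gene length put *Tifab* first of the 9 in control LSKs, followed in order of mean FPKM by *Irak1*, *Myd88*, *Tifa*, *Traf2*, *Irak4*, *Usp15*, *Traf6* and *Alpk1*. Of the neighbours in this order, only *Usp15* and *Traf6* had overlapping ranges. In *Myh9*-deficient LSKs *Tifab* (27.3 to 30.2 FPKM) and *Irak1* (26.2 to 28.9 FPKM) overlapped at the top, and *Usp15* and *Irak4* overlapped further down. *Myd88*, *Tifa* and *Traf2* followed in the same order as in control.

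Relative to the adaptor and to the ligase, *Tifab* was lower in every *Myh9*-deficient library than in any control library. The ratio of *Tifab* to *Tifa* FPKM was 5.61, 4.7 and 4.93 in control against 2.59, 2.69 and 2.92 in *Myh9*-deficient libraries. The ratio of *Tifab* to *Traf6* FPKM was 19.0, 21.9 and 20.9 in control against 6.97, 7.83 and 7.95 in *Myh9*-deficient libraries. The *Tifab* to *Tifa* ratio fell by 0.89 and the *Tifab* to *Traf6* ratio by 1.44 on the log2 scale, each with an exact permutation p of 0.1 (two-sided), the smallest that 3 libraries against 3 can give.

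The 5 genes whose pattern over the 6 libraries was nearest to that of *Tifab* were *Csf1r*, the M-CSF receptor, *C3*, a complement component, *Ly6c2*, a monocyte surface protein, *Nrg1*, an EGF family ligand, and *Btg2*, an antiproliferative gene. Likeness was the root mean square distance between log2(FPKM + 1) values centred on each gene's mean, which was 0.0706 for *Csf1r* and 0.0931 for *Btg2*. *Csf1r* had 25.6 ± 1.17 FPKM in control against 8.7 ± 0.546 FPKM in *Myh9*-deficient libraries, and *Ly6c2* 361 ± 18.9 and 131 ± 9.24 FPKM. *C3* had 21.7 ± 0.795 and 6.86 ± 0.225 FPKM. With 6 libraries in 2 groups, this distance mostly reflects the size of the difference between the groups. *Nrg1* was low, with 2.15 ± 0.0568 FPKM in control against 0.181 ± 0.0477 FPKM in *Myh9*-deficient libraries, a ratio of 0.0842 beside 0.33 for *Tifab*, so its nearness to *Tifab* holds for log2(FPKM + 1) and not for the ratio of FPKM.

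**Figure D4:**
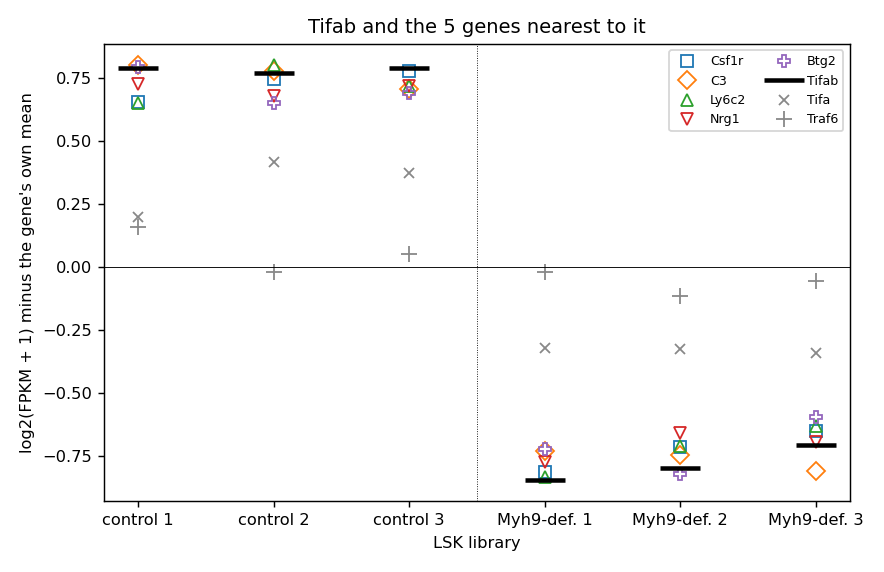
For each LSK library (horizontal axis), the vertical axis gives log2(FPKM + 1) minus the gene's own mean over the 6 libraries. *Tifab* (black bars) and the 5 nearest genes lie together above 0 in control and below 0 in *Myh9*-deficient libraries, with *Tifa* and *Traf6* (grey) closer to 0.

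Of these genes, *Csf1r* and *Ly6c2* are also markers of monocytes, and markers of several blood lineages moved with *Tifab*. Over all genes tested, 20.6% were called lower and 19.9% higher. All 4 monocyte and macrophage markers tested fell, *Csf1r* and *Ly6c2*, already picked by their nearness to *Tifab*, among them. The others, *Cd14* and *Adgre1*, fell from 21.2 to 3.67 and from 1.56 to 0.59 FPKM. The summed level of the list of 6 went from 391 to 432 FPKM over control libraries to 136 to 154 FPKM over *Myh9*-deficient libraries. Most of this sum was *Ly6c2*. Neutrophil markers were lower for 6 of the 7 tested, with sums of 6641 to 6708 and 3489 to 3552 FPKM. Most of these sums was *Mpo* and *Elane*, primary granule genes that early progenitors already express, which went from 3331 to 1953 and from 3096 to 1346 FPKM. Of the genes of later neutrophils, *Ltf* fell from 5.96 to 3.39, *Camp* from 23.3 to 14.8 and *Ngp* from 33.0 to 25.5 FPKM, whereas *S100a9* measured 114 against 101 FPKM and *S100a8*, which did not pass, 67.8 against 67.3 FPKM. In contrast, all 5 erythroid markers were higher (65.9 to 70.3 and 126 to 138 FPKM), as were all 3 megakaryocyte markers tested (56.7 to 60.0 and 123 to 129 FPKM). Stem and progenitor markers, *Kit*, *Ly6a* and *Cd34* among them, summed to 214 to 219 and 221 to 229 FPKM. Of 8 tested, 1 was lower (*Kit*) and 3 were higher (*Flt3*, *Procr* and *Hlf*). The 2 of 6 B and plasma cell markers tested, *Jchain* (30.4 and 64.0 FPKM) and *Cd79a* (0.743 and 1.52 FPKM), were both higher. Most of the list sum (30.9 to 31.7 and 61.8 to 68.8 FPKM) was *Jchain*. The other 4 stayed under 1 FPKM in every library. Of these, *Pax5*, at 0 in all controls, had at most 6 reads in any library, and *Ebf1* had a lower mean (0.0162 and 0.00366 FPKM). Of the 6 T and NK markers, the sum of which was 350 to 360 and 279 to 285 FPKM, *Nkg7* was tested and was lower (349.75 to 358.9 and 276 to 282 FPKM). The other 5 were too low to test, and 4 of them lay above the controls in every *Myh9*-deficient library, with mean levels of 0.0495 and 0.654 FPKM for *Cd3g*, 0 and 0.234 for *Cd3e*, 0.311 and 0.826 for *Cd4* and 0.354 and 1.01 for *Klrb1c*. No dendritic cell marker reached 1 FPKM in any library. In bulk samples, fewer cells of a type and less RNA per cell cannot be told apart, and the part of these cell types in the changes of *Tifab*, *Tifa* and the other genes was not tested.

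The other genes of the pathway were read in 8 lists by role, 80 genes in all, of which 70 were tested. Of these 70, 31 were called (44.3%), 25 lower and 6 higher in *Myh9*-deficient LSKs, beside 40.5% of all genes tested, and the median log2 fold change was -0.08. The share called was above 40.5% for IL-1 family receptors (50%), NF-kB induced genes (62.5%) and deubiquitinases and brakes (63.6%). It was below 40.5% in each of the other lists (27.3% to 37.5%). The 10 genes under the filter were *Il1rap*, *Il1r2*, *Il18r1*, *Peli3*, *Traf1*, *Traf5*, *Ube2v1*, *Mapk11*, *Cxcl1* and *Il1b*.

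At the receptors, 2 of 4 IL-1 family receptor genes tested rose and none fell (median log2 fold change 0.36). *Il18rap*, an accessory chain of the IL-18 receptor, rose from 1.78 ± 0.188 to 3.98 ± 0.404 FPKM (log2 fold change 0.84, with a limma adjusted p = 0.0005). *Il1r1*, the signalling receptor of IL-1, rose from 1.91 ± 0.126 to 3.43 ± 0.28 FPKM (0.6, adjusted p = 0.000948). Neither overlapped between the groups.

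Among the other adaptors, IRAKs and Pellino ligases, 3 of 8 genes fell and none rose, with a median of -0.2 and all 8 below 0. *Ticam2*, the TRAM adaptor of TLR4, fell from 4.69 ± 0.332 to 2.76 ± 0.0962 FPKM (log2 fold change -0.6, with a limma adjusted p = 0.000512). *Peli2*, a Pellino ubiquitin ligase, fell from 1.53 to 0.938 FPKM and *Tollip*, which binds IRAK1, from 12.7 to 10.9 FPKM. *Irak3*, the inhibitory IRAK, measured 6.83 to 6.9 FPKM in control against 5.1 to 6.24 FPKM in *Myh9*-deficient libraries, and did not pass (adjusted p = 0.0549).

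Of 7 other TRAF and TNF receptor complex genes, 1 fell and 1 rose (median log2 fold change 0.04). *Ripk1*, a kinase of the TNF receptor complex, fell from 5.7 to 4.81 FPKM (log2 fold change -0.2, with a limma adjusted p = 0.016), and *Traf4* rose from 5.55 to 7.55 FPKM (0.39, adjusted p = 0.00487). *Traf3* measured 4.52 to 4.59 FPKM in control against 4.28 to 5.06 FPKM in *Myh9*-deficient libraries and did not pass.

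Immediately below TRAF6, 3 of 11 genes of ubiquitin conjugation, TAK1 and IKK passed, 2 lower and 1 higher, with a median of -0.05. *Ube2n*, the conjugating enzyme that works with TRAF6, rose from 36.1 ± 1.63 to 40.3 ± 2.12 FPKM (log2 fold change 0.16, with a limma adjusted p = 0.0435). *Rnf31*, a ligase of the linear ubiquitin complex, fell from 6.2 to 5.22 FPKM and *Ikbkg*, the regulatory subunit of IKK, from 4.97 to 4.4 FPKM. *Map3k7*, which encodes TAK1, overlapped between the groups (6.85 to 7.19 and 6.48 to 7.25 FPKM).

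The deubiquitinases and ubiquitin-binding brakes had 6 lower and 1 higher of 11 tested, with a median of -0.12. *Tnfaip3*, which encodes the ubiquitin-editing inhibitor A20, measured 6.34, 6.18 and 6.15 FPKM in control against 2.99, 2.85 and 2.95 FPKM in *Myh9*-deficient libraries. This gene had the largest fall of the list (log2 fold change -0.88, with a limma adjusted p = 3.21e-05), and its groups were far apart. *Usp11*, a deubiquitinase, fell from 14.7 to 9.83 FPKM and *Tnip1*, a partner of A20, from 15.6 to 11.7 FPKM, while *Tnip2* rose from 9.62 to 10.7 FPKM.

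Of 7 stress kinase genes below TAK1, 2 fell and none rose (median -0.13). *Map2k6*, a kinase that activates p38, fell from 4.25 ± 0.205 to 2.41 ± 0.366 FPKM (log2 fold change -0.63, with a limma adjusted p = 0.00205) and *Mapk14*, which encodes p38 alpha, from 47.4 ± 0.992 to 40.8 ± 0.973 FPKM (-0.21, adjusted p = 0.00233).

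In the USP15 and p53 list, 2 of 6 genes fell and none rose (median -0.02). *Cdkn1a*, which encodes the cell cycle inhibitor p21, fell from 13.1 ± 1.33 to 8.64 ± 0.69 FPKM (log2 fold change -0.55, with a limma adjusted p = 0.00265) and *Bbc3*, which encodes the apoptosis promoter PUMA, from 9.34 ± 0.459 to 7.58 ± 0.614 FPKM (-0.27, adjusted p = 0.0161). *Trp53* itself measured 79.5 to 83.7 FPKM in control against 81.9 to 83.7 FPKM in *Myh9*-deficient libraries and did not pass (adjusted p = 0.423), and neither did *Mdm2* (adjusted p = 0.426).

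Genes known to be induced by NF-kB had 9 lower and 1 higher of 16 tested, with a median of -0.34. *Ccl4*, a chemokine, measured 66.1, 62.8 and 59.4 FPKM in control against 29.9, 23.8 and 30.5 FPKM in *Myh9*-deficient libraries (log2 fold change -1.14, with a limma adjusted p = 0.000234). *Nfkbiz*, an atypical IkB protein, fell from 5.7 ± 0.119 to 2.36 ± 0.293 FPKM (-1.0, adjusted p = 0.000139) and *Cxcl2*, a neutrophil chemokine, from 6.3 ± 0.178 to 3.24 ± 0.472 FPKM (-0.79, adjusted p = 0.000682). *Relb*, an NF-kB subunit, was the exception and rose from 1.51 ± 0.2 to 2.23 ± 0.177 FPKM (0.37, adjusted p = 0.0153). *Tnf* measured 5.33 to 5.66 FPKM in control against 5.76 to 7.39 FPKM in *Myh9*-deficient libraries without passing (adjusted p = 0.0594). Many of these genes are also expressed by monocytes and neutrophils, whose markers moved the same way, as given above, and their part in these falls was not tested.

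**Figure D5:**
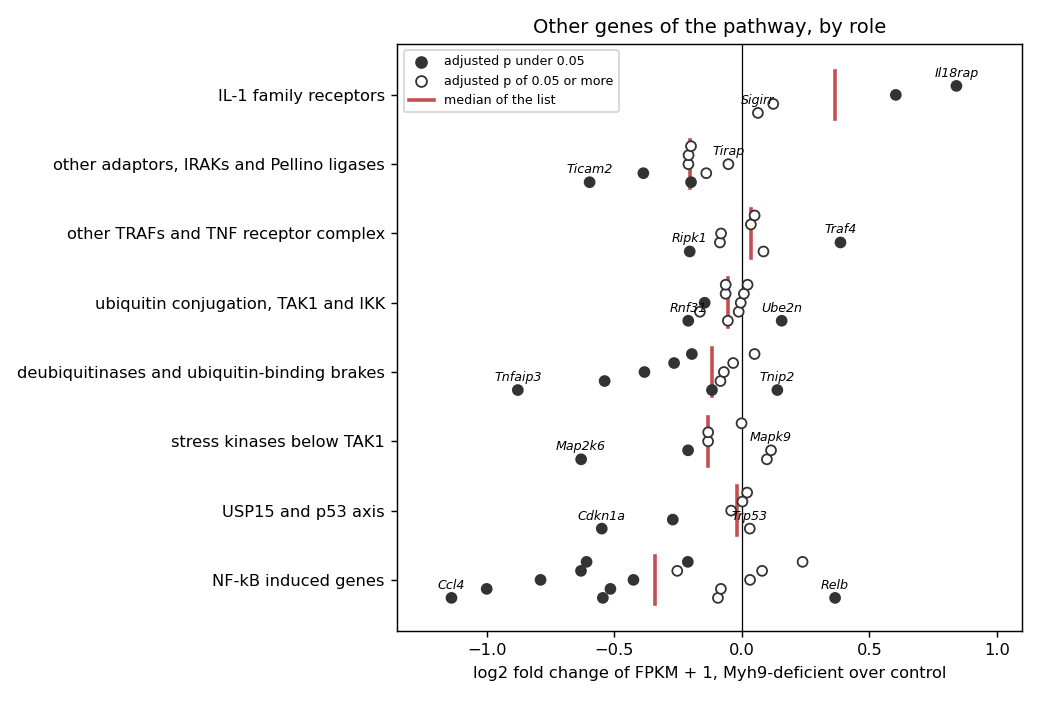
Each point is 1 tested gene of the pathway other than the 9, placed by role and by its log2 fold change of FPKM + 1 (*Myh9*-deficient over control), filled where the adjusted p was under 0.05, with the list median in red and the outermost genes named. The list of NF-kB induced genes has the lowest median (-0.34) and that of IL-1 family receptors the highest (0.36).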

How the data were processed

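LSK cells of 3 control and 3 *Myh9*-deficient samples were compared, with groups and replicate numbers taken from the sample labels. The authors deposited FPKM values, scaled by gene length and library size, with 1 column for each library. The submitters' processing notes name HISAT2 2.0.5 and mm10, and the counting program is not given in the sources used here. The gene identifiers matched GENCODE M21 (GRCm38) for 54409 of 54532 genes, and all 9 members had the same positions and exon length there. All FPKM values (100%) were whole multiples of 1 step per library within 0.05 reads after correction for length, which gave reads on genes. At this depth 3 reads on a gene of 1 kilobase are worth 0.151 to 0.17 FPKM, and such limits cover counting error only.

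Of the genes, 11552 averaged at least 1 FPKM and were tested on log2(FPKM + 1), computed here from the deposited FPKM, with lmFit and eBayes with a trend in limma 3.58.1 under R 4.3.3. Tests were two-sided, with the adjustment of Benjamini and Hochberg over all genes tested. Fold changes on this scale understate those of low genes. The test was checked on simulated data in which few genes changed, each by 2-fold or more. This check does not cover smaller changes, such as those of *Irak1*, *Myd88* and *Alpk1*. Ratios were compared with an exact permutation test. Named genes were *Myh9*, the 9 members, at most 3 rises and 3 falls of each pathway list with the largest log2 fold change among genes with an adjusted p under 0.05, and the 5 genes nearest to *Tifab*. Other genes named with values were chosen after their values were seen. The members and all lists were chosen with earlier results of these data known. Alternatives were other pseudocounts, filters, scalings (median of ratios, TPM, quantile), eBayes without a trend, voom on recovered reads, a replicate block, leaving out each library, and a limit of 2-fold. Removal of trends with GC content and length was added after seeing the data. Promoter sequences were from RefSeq, which listed all 9 members.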

Additional observations from a re-analysis of the deposited data

How the results depend on the processing

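*Tifab*, *Tifa* and *Myd88* kept their direction and an adjusted p under 0.05 (limma) in all 16 settings tried for each, with log2 fold changes of -1.61 to -1.54, -0.73 to -0.61 and 0.12 to 0.17. *Alpk1* stayed lower in 15 settings but lost its call in 9 (adjusted p = 0.009 to 0.127), with a log2 fold change of -0.51 to -0.21, the larger sizes being -0.49 with a pseudocount of 0.1 and -0.51 with voom, and *Irak1* stayed lower in 16 and lost its call in 10 (0.0147 to 0.15). *Irak4* passed only with TPM (adjusted p = 0.0386), *Usp15* only with voom (0.0315) and with GC and length trends removed (0.0309), and *Traf6* in none (0.105 to 0.509).

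Of the 9 genes, 5 were called in the fit reported (4 lower, 1 higher), 3 with no filter on low values (more genes tested) and 1 at more than 2-fold. With TPM 6 were called (5 lower, 1 higher) and with voom 6 (4 lower, 2 higher), beside 40.5% and 45.6% of all genes. With GC and length trends removed 4 were called, 2 lower and 2 higher, beside 37.5% of all genes. When 1 library was left out, 3 to 4 were called, beside 30.7% to 35.6% of all genes. The replicate block called 3 of the 9 and 27 of the 70 other pathway genes, beside 35.6% of all genes. Same-numbered libraries did not deviate together (r = -0.0046, -0.011 and -0.026). With 3 libraries in each group, this cannot tell whether they were paired. Of the 70 other genes, 31 were called in the fit reported, 20 with a mean of at least 5 FPKM (fewer genes tested), 2 at more than 2-fold, and 24 to 30 when 1 library was left out. *Traf2* changed sign to 0.0023 with the median of ratios, 0.0039 with voom and 0.044 with GC and length trends removed, and lay between -0.076 and 0.073 with 1 library left out. The cause of these shifts was not tested. Over all genes, 17.1% were called with no filter and 50.6% when a mean of 5 FPKM was required. The *Tifab* to *Tifa* and *Tifab* to *Traf6* ratios kept their direction in the 8 settings tried for each. Depth limits *Alpk1* most, with 103 to 184 reads.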
